A study of Homo sapiens with 2 samples.

Results

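The collagen, laminin and integrin genes encode a large part of the matrix that surrounds cells and the receptors that hold cells to it. They were taken from the tables by symbol. A collagen gene has the form COL, digits, A, digits, a laminin gene is LAMA, LAMB or LAMC with a digit, and an integrin gene is ITGA or ITGB with up to 2 further digits or letters. The rule found 83 of 53737 genes, namely 44 collagens, 12 laminins and 27 entries of the integrin form. The last include ITGBL1, which is a secreted relative of the beta subunits and not a receptor subunit. Expression had been profiled by RNA sequencing in SK-ES-1, an established cell line from Ewing sarcoma of bone, with the genotype given as WT in both samples. The SCC library, from slow-cycling cells that divide rarely, was set against the non-SCC library, from the other cells of the line, with no drug or genetic change named for either. Where 2 values of a gene stand side by side, that of the SCC library comes first. With 1 library per group, each difference below describes these 2 libraries. It has no error, no replicate check and no p-value. How the slow-cycling cells were separated is not given in the sources used here, and the line stands for a single tumour.

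Collagens are secreted as trimers of chains wound into a triple helix, and their types differ in what they build: fibrils, sheets, beaded filaments or links between these. Laminins are crosses of an alpha, a beta and a gamma chain and are the main adhesive proteins of basement membranes. Integrins are pairs of an alpha and a beta subunit that bind matrix proteins outside the cell and connect to actin inside it. In Ewing sarcoma the fusion protein EWSR1-FLI1 is known to hold down many mesenchymal and matrix genes.

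Levels are given in per-million units, obtained from the deposited log2 values by raising 2 to the value and subtracting 1. The unit is not stated, and levels are set between genes on the assumption that it is divided by transcript length. Of 14606 values above 0 in the SCC table, 14591 were distinct, so the levels were not whole read counts times 1 common factor. Whether they were divided by length cannot be told from this. The non-SCC table had 14197 values above 0, fewer than the SCC table. Read depth was unknown, and its part in this was not tested. A gene had to reach 1 unit in at least 1 library to be compared, which 33 of the 83 members and 13444 genes in all did. The difference is log2(level + 1) in the SCC minus the non-SCC library, a scale that understates the difference of low genes. All 6 Ewing sarcoma markers looked up, among them CD99 and NKX2-2, were detected, with summed levels of 1151 in the SCC and 1167 in the non-SCC library.

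Of the 33 compared members, 7 were at least 1.5-fold higher in SCC and 0 were at least 1.5-fold lower, where 5.38% and 1.41% of all compared genes were. At 2-fold the members were 3 and 0, beside 1.9% and 0.431% of all genes. The 7 were the collagens COL6A1, COL6A2, COL7A1, COL1A1 and COL16A1 and the laminin chains LAMB3 and LAMC1, and no integrin was among them. Each of the 7 had a level under 10 units in both libraries. The median difference was 0.22 for 19 collagens, 0.48 for 4 laminins and 0.05 for 10 integrins, beside 0.03 for all compared genes. A difference above 0 was found for 24 of the 33 members and for 56.2% of all compared genes, the share against which the counts above 0 below should be read. Counts at 1.5-fold below, also those of 0, should likewise be read against 5.38% higher and 1.41% lower. In a bulk sample a different share of expressing cells and a different amount of RNA per cell cannot be told apart.

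**Figure D1:**
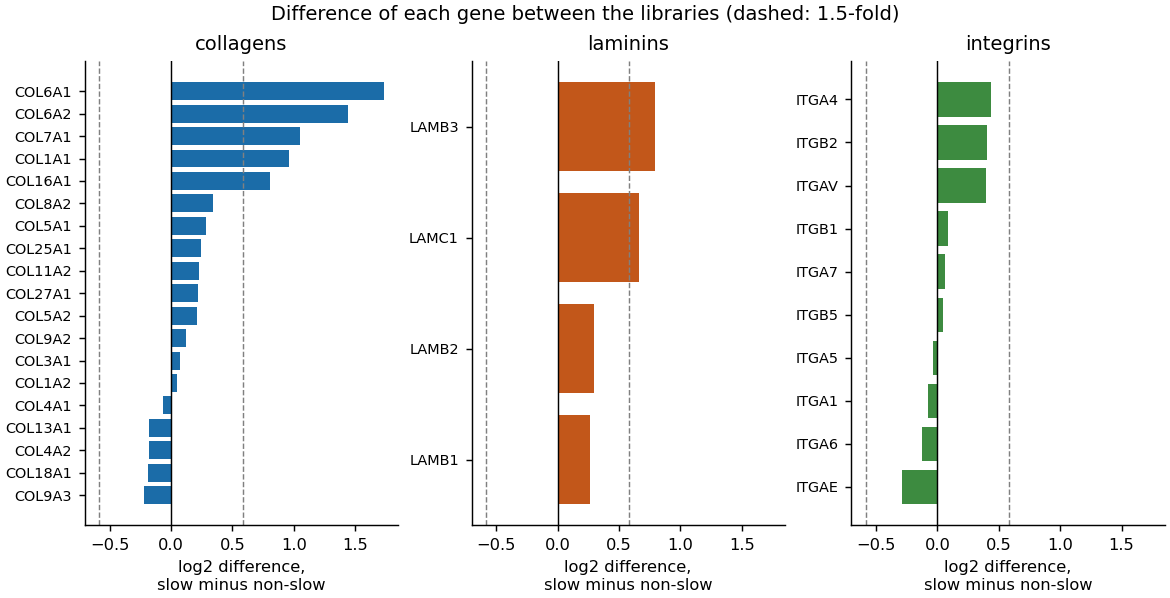
Log2 difference of each compared gene, SCC minus non-SCC library, in 3 panels for collagens, laminins and integrins, with 1 bar per gene and dashed lines at 1.5-fold. The bars of 5 collagens and 2 laminins pass the upper line, and none passes the lower one.

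Up to 250 bases before a start of 4 of these 7 genes are shown because they are stretches next to which transcription can begin. For COL6A2, COL7A1 and LAMC1 this is the start of the gene, and for LAMB3 it is an alternative start inside the gene. They come from RefSeq windows on GRCh38.p14, read 5′ to 3′ on the strand of the gene and stopped at the first base that GENCODE release 29 places in an exon. Capitals mark letters of 5 motifs searched on both strands, which were the GC box GGGCGG, the CCAAT box CCAAT, the TATA box TATAAA, the AP-1 site TGANTCA and the pair GGAAGGAA of the kind the Ewing fusion binds in longer arrays.
COL6A2, chr21:46097862-46098096, plus strand: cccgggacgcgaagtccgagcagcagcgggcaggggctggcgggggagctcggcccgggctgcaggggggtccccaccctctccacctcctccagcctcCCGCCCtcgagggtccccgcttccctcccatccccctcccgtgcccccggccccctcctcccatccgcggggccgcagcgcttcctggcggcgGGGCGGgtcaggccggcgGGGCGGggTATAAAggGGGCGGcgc
COL7A1, chr3:48595330-48595579, minus strand: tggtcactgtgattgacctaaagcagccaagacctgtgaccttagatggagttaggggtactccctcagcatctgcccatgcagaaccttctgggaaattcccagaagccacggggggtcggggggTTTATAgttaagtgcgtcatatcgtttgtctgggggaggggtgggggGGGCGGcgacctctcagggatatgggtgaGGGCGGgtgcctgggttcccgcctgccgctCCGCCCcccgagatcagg
LAMB3, chr1:209651395-209651624, minus strand: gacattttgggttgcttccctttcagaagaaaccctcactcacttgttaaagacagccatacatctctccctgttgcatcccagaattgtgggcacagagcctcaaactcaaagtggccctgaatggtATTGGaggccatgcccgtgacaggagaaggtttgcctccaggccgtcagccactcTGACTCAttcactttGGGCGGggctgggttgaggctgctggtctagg
LAMC1, chr1:183023170-183023419, plus strand: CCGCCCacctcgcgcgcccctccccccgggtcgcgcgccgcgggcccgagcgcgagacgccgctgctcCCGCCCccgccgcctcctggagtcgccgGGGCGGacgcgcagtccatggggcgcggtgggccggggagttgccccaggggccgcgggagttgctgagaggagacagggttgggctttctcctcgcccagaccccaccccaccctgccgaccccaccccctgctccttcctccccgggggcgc
COL6A2 had 4 GC boxes and 1 TATA box, COL7A1 had 3 and 1, and LAMC1 had 3 and none of the other motifs. LAMB3 has 3 windows in RefSeq, and the one shown was chosen because it alone held the AP-1 letters, beside 1 GC box and 1 CCAAT box. COL16A1, whose window has fewer than 200 bases before an annotated exon and is not shown, had 2 GC boxes. RefSeq windows were found for 25 of the 33 compared members. A GC box stood in at least 1 window of 19 of the 25, against 42.6% of all 35116 windows of this length. The TATA box was found for 6 of the 25 and in 10.7% of windows, and the CCAAT box for 4 and in 32%. The AP-1 letters were found for LAMB3 alone and in 6.57% of windows, and the GGAA pair for LAMB2 alone and in 3.06%. A gene with several windows had several chances of a match, while the percentages count windows. The matches describe letters and were not tested as binding sites.

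The fibrillar collagens, which form the load-bearing fibrils of connective tissue, were the most abundant class. Their summed level was 297 units in the SCC and 272 in the non-SCC library, out of 491 and 469 for all 44 collagens. All 7 compared fibrillar genes of 11 had a difference above 0, and 1 of them reached 1.5-fold. COL1A2, the alpha 2 chain of type I collagen, was the highest collagen at 144 and 139 units, a difference of 0.05. COL1A1, the alpha 1 chain that type I collagen normally holds in excess over alpha 2, was at 3.19 and 1.15, a difference of 0.96. The partner chains of type I collagen were thus at very unequal levels in both libraries, and the lower one carried the larger difference. COL1A1 lies on chromosome 17 (50184101 to 50201631, GRCh38) and COL1A2 on chromosome 7 (94394895 to 94431227).

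COL3A1, the single chain of type III collagen of elastic tissues, was at 49.9 and 47.4 units, a difference of 0.07. Its neighbour on chromosome 2, COL5A2, was at 31.8 and 27.3, a difference of 0.21. COL5A1, which pairs with COL5A2 in type V collagen and helps to start fibrils, was at 38.5 and 31.4, a difference of 0.28. Both type V chains were therefore at like levels and a little higher in the SCC library. An antisense gene over COL5A1, COL5A1-AS1, was listed at 0 in the SCC and at 0.871 in the non-SCC library. COL27A1, a fibrillar collagen of developing cartilage, was at 28.2 and 24.0, a difference of 0.22. COL11A2, a minor chain of cartilage fibrils, was at 1.65 and 1.26, a difference of 0.23. COL2A1, the main cartilage collagen, was listed at 0 in both libraries, as were COL11A1, COL24A1 and COL5A3.

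Type VI collagen forms beaded filaments around cells from chains encoded by COL6A1, COL6A2 and COL6A3. The first pair had the largest differences of the 33 compared members. COL6A1, on chromosome 21 (45981770 to 46005048), was at 2.33 units in SCC and listed at 0 in non-SCC, a difference of 1.73 that rests on the added 1. COL6A2, further along the same chromosome (46098112 to 46132848), was at 6.43 and 1.74, a difference of 1.44. COL6A3, on chromosome 2, stayed below the minimum of 1 unit, at 0.551 in SCC and at 0 in non-SCC. Of these chains, COL6A2 alone had a value above 0 in both libraries, while COL6A1 and COL6A3 rest on an exact 0 in non-SCC. COL6A1 passed the minimum through the SCC library alone, and all were at low levels. COL6A5 and COL6A6, the alternatives to COL6A3, were listed at 0 in both. The difference of COL6A1 ranked 39 and that of COL6A2 ranked 87 from the top among 13444 genes.

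Type IV collagen, the sheet-forming collagen of basement membranes, went the other way by a small amount. COL4A1 and COL4A2 encode the chains of the common type IV collagen and lie head to head on chromosome 13, with 126 bases between their RefSeq starts. COL4A1 was at 16.8 and 17.6 units, a difference of -0.06, and COL4A2 was at 53.7 and 61.2, a difference of -0.18. Both were slightly lower in the SCC library, with COL4A2 the higher of the pair in each. The region between the RefSeq starts (chromosome 13, 110307158 to 110307283) had 1 GC box and 1 CCAAT box and was 80.2% G and C. The other type IV pairs, COL4A3 with COL4A4 and COL4A5 with COL4A6, were listed at 0 in both libraries. COL8A2, a short-chain collagen of endothelial sheets, was at 2.03 and 1.38, a difference of 0.35. COL8A1 and COL10A1 were listed at 0 in both.

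COL7A1 encodes the anchoring fibrils that tie basement membrane to the tissue below. It lies on chromosome 3 (48564073 to 48595329) and was at 3.17 and 1.01 units, a difference of 1.05. Among collagens that sit on the surface of fibrils, COL16A1, on chromosome 1 (31652263 to 31704017), was at 9.25 and 4.85, a difference of 0.81. It was the most abundant collagen among those at least 1.5-fold higher. COL9A3, a chain of type IX collagen of cartilage, was far above it at 54.5 and 63.8 and had the lowest difference of the family, -0.22. COL9A3 shares 45 bases at its edge with TCFL5 on the opposite strand. COL9A2, another chain of type IX, was at 5.10 and 4.62, a difference of 0.12, and the third chain, COL9A1, was listed at 0 in both. The type IX chains were thus unequal, as those of type I were.

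COL12A1, COL19A1 and COL21A1, also of the fibril-associated class, stayed below 1 unit. COL12A1 was at 0.547 and COL21A1 at 0.772 in SCC, and both stood at 0 in non-SCC. COL19A1 was at 0.618 and 0.340. These 3 and COL6A3 failed the minimum, and 3 of the 4 rest on an exact 0. They enter no count of higher genes except that made without the filter. Among compared genes under 4 units, 69.7% had a difference above 0. COL14A1, COL20A1 and COL22A1 were listed at 0 in both.

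COL13A1, a collagen that spans the cell membrane, was at 14.4 and 16.5 units, a difference of -0.18. COL25A1, a membrane collagen of neurons, was at 5.85 and 4.77, a difference of 0.25. COL18A1, a basement membrane collagen whose end fragment is endostatin, was at 17.2 and 19.8, a difference of -0.19. SLC19A1, on the strand opposite COL18A1, overlaps it and was also lower, at 26.0 and 32.2. COL15A1, COL17A1, COL23A1, COL26A1 and COL28A1 were listed at 0 in both, which brings the collagens listed at 0 in both to 21 of 44. An exact 0 can be a failed estimate in such tables: the 13 protein genes of mitochondrial DNA were all listed at 0 too.

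**Figure D2:**
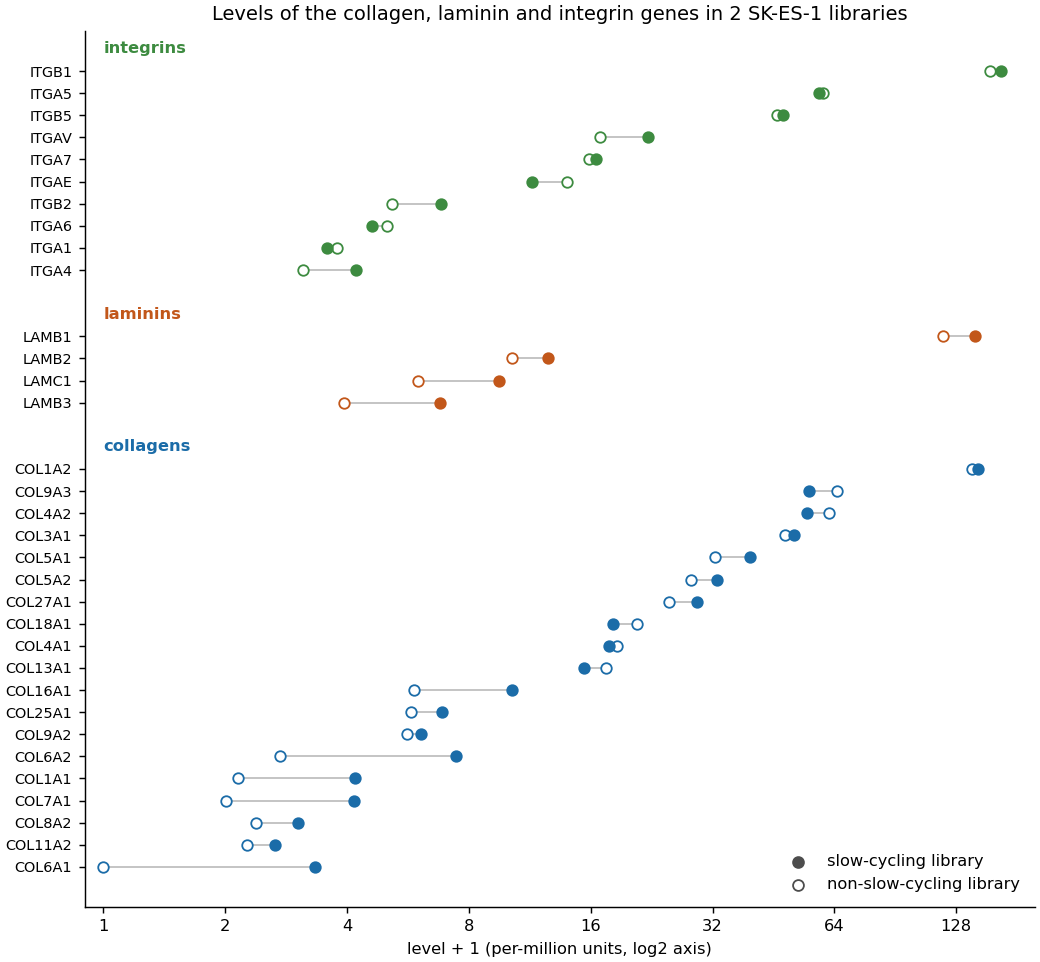
Level plus 1 of each compared gene in per-million units on a log2 axis, with filled circles for the SCC and open circles for the non-SCC library, grouped by family and ordered by mean level. Long lines between circles occur among the low genes, while COL1A2, LAMB1 and ITGB1, each above 100 units in both libraries, have short ones.

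All 4 compared laminin chains were higher in the SCC library, 2 of them by at least 1.5-fold, and the summed level of the 12 genes was 168 against 135. Of all compared genes 56.2% were above 0, and of those at 4 to 10 units, where LAMB3 and LAMC1 lie, 68.0%. At least 1.5-fold higher were 5.38% of all compared genes and 6.84% of those at 4 to 10 units. After subtraction of the median of genes of like level 1 laminin reached 1.5-fold, and without it 0 reached 2-fold. LAMB1, the beta 1 chain found in most embryonic and adult basement membranes, made up most of this at 142 and 118 units, a difference of 0.26. LAMB1 overlaps DLD on the opposite strand of chromosome 7, and DLD was at 106 and 115. LAMB2, the beta 2 chain of muscle and nerve endings, was at 11.6 and 9.20, a difference of 0.30. LAMB3, the beta 3 chain of epithelial laminin, lies on chromosome 1 (209614870 to 209652425) and was at 5.79 and 2.93, a difference of 0.79.

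LAMC1, the gamma 1 chain shared by most laminins, lies on chromosome 1 (183023420 to 183145592) and was at 8.51 and 5.0 units, a difference of 0.66. LAMC3, the gamma 3 chain, was listed at 0 in both libraries, as was LAMA3, an alpha chain that partners LAMB3 in epithelia. No alpha chain reached 1 unit, although a laminin is not secreted as a full cross without one. LAMA5, the broadest alpha chain, was at 0.642 and 0.381, and LAMA4, of vessels and muscle, was at 0.0414 and listed at 0. LAMA1, LAMA2 and LAMB4 were listed at 0 in both. The transcripts of this family were therefore dominated by a beta chain in both libraries, with its gamma partner far lower and the alpha chains near 0.

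Over all levels, the integrin median was the nearest to that of all genes among the 3 families. Among members with a mean of at least 10 units this did not hold, with a median of -0.01 for 10 collagens and 0.05 for 6 integrins. Of 10 compared integrins, 6 had a difference above 0 and 4 below, none reached 1.5-fold in either direction, and the differences ranged from -0.29 to 0.44. Of all compared genes 5.38% were at least 1.5-fold higher and 1.41% lower, and 1.05% were higher among those of at least 10 units. A count of 0 in 10 genes is near these shares. Among beta subunits, ITGB1, which pairs with most alpha subunits, was the most abundant of all 83 members at 165 and 155 units, a difference of 0.09. ITGB5, which pairs with the alpha V subunit, was at 46.9 and 45.3, a difference of 0.05. ITGB3, ITGB4, ITGB6, ITGB7 and ITGB8 were listed at 0 in both.

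The highest alpha subunits were ITGA5 and ITGAV, which bind fibronectin and other proteins with an RGD sequence. ITGA5, the fibronectin receptor subunit, was at 57.6 and 59.2 units, a difference of -0.04. ITGAV, the alpha V subunit of vitronectin and fibronectin receptors, was at 21.2 and 15.8, a difference of 0.40, the largest of any member with a mean of at least 10 units. ITGA4, which binds fibronectin and the vascular ligand VCAM1, was at 3.21 and 2.11, a difference of 0.44. ITGAV and ITGA4, on chromosome 2, were thus higher in the SCC library by 1.32-fold and 1.35-fold on this scale, while ITGA5 was nearly level. ITGA8, of the same RGD class, was listed at 0 in both, and ITGA9 was at 0.200 and 0.258.

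Of the laminin-binding subunits, ITGA7, known from muscle, was at 15.5 and 14.8 units, a difference of 0.06. ITGA6 was at 3.60 and 4.02, a difference of -0.13, and ITGA3 was listed at 0 in both. Differences of the laminin receptors thus lay on both sides of 0, where those of the 4 laminin chains were above it. Of the collagen-binding subunits, ITGA1 was at 2.57 and 2.77, a difference of -0.08, and ITGA2, ITGA10 and ITGA11 were listed at 0. PELO lies within ITGA1 on the same strand and was at 14.6 and 13.3, so reads of the region could be divided in more than 1 way. ITGA1 was thus the only collagen-binding alpha subunit with a value above 0, and it was low in both libraries.

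The subunits of leukocyte integrins were mostly listed at 0. ITGB2, their shared beta subunit, was at 5.83 and 4.15 units, a difference of 0.41, but its partners ITGAL, ITGAM, ITGAX and ITGAD were listed at 0 in both libraries. The antisense gene ITGB2-AS1 covers 8628 bases of ITGB2 and was far higher, at 50.1 and 54.7, with a difference of -0.12. The kit keeps strand, but whether the counting used it is not given, so ITGB2 is uncertain. ITGAE, the alpha E subunit of lymphocytes in epithelia, was at 10.4 and 13.0, the lowest difference of the family at -0.29, while ITGB7, its partner, was listed at 0. HASPIN, a mitotic kinase gene inside ITGAE on the opposite strand, was at 15.6 and 13.3, so ITGAE is uncertain too. ITGA2B, of platelets, was at 0.630 and 0.223, and ITGBL1 was listed at 0 in both.

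The differences went with level, over all genes and among the members. Of the 18 members with a mean of at least 10 units, 11 had a difference above 0, none reached 1.5-fold, and their median was 0.06. For all 9299 genes at that level the median was 0.00, with 50.6% above 0, 1.05% at least 1.5-fold higher and 0.312% lower. Of the 7 members between 4 and 10 units, 4 were at least 1.5-fold higher, where 6.84% of 2046 genes were, and 0 were lower, against 1.81%. These 4 were COL16A1, LAMB3, LAMC1 and COL6A2, the last with a mean of 4.08, just inside the range. Of the 8 members under 4 units, 3 were, namely COL6A1, COL7A1 and COL1A1, where 23.1% of 2099 genes were, and 0 were lower, against 5.86%. The median of all genes in these 2 ranges was 0.11 and 0.22, and the ranges were set after the data were seen. With the median of genes of like level subtracted, 6 of the 7 were at least 1.5-fold higher and LAMC1 was at 0.55. This subtraction moves the centre of each range and leaves its scatter as it was. The quartiles of all genes were -0.07 and 0.55 under 4 units, and -0.11 and 0.13 at 10 units or more. The part of low level in the differences of the 7 genes was not tested.

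**Figure D3:**
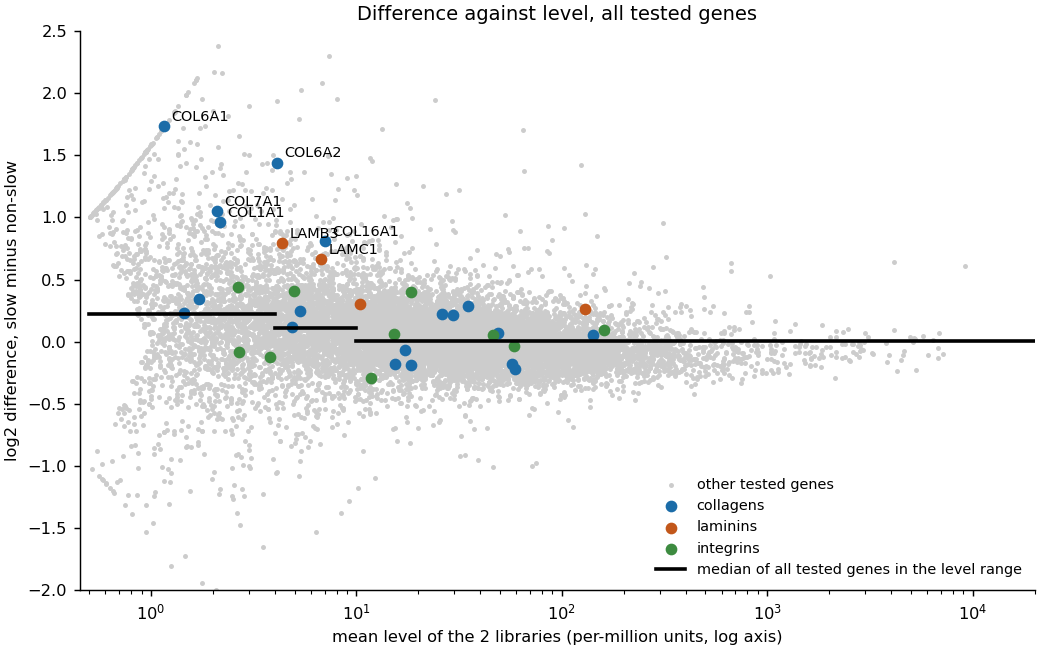
Log2 difference, SCC minus non-SCC library, against mean level in per-million units on a log axis, with grey points for 13397 other compared genes, coloured points for the members and black bars for the median of all compared genes in 3 level ranges. The axes leave out 14 other genes. The 7 named genes lie at the left, where grey points scatter more widely and the bars stand at 0.22 and 0.11, against 0.00 on the right.

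Other matrix ligands and receptors were read from 4 lists of adhesion genes. Of 9 compared ligands outside the 3 families, 8 had a difference above 0 and 4 reached 1.5-fold, with a median of 0.25, where 56.2% and 5.38% of all compared genes did. MATN2 and FBN1 passed the minimum of 1 unit through the SCC library alone, so their direction owes something to the filter. They lie under 4 units, where 23.1% of genes were at least 1.5-fold higher. With a mean of at least 1 unit required, the ligand median was 0.21 and 2 genes of the 4 lists were higher. After subtraction of the median of genes of like level, 2 genes of the 4 lists reached 1.5-fold. FN1, fibronectin, the ligand of the ITGA5 and ITGAV receptors, was at 69.8 and 45.5 units, a difference of 0.61, the largest of the listed ligands above 10 units. TNC, tenascin C of wounds and tumour stroma, was at 5.93 and 3.30, MATN2, matrilin 2, at 1.02 and 0.175, and FBN1, the microfibril protein fibrillin 1, at 1.77 and 0.180. The basement membrane partners of laminin and type IV collagen lay nearer 0, with NID1 at 0.06, HSPG2 at 0.08 and AGRN at 0.21.

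Of 13 compared matrix receptors other than integrins, 10 had a difference above 0 and none reached 1.5-fold, with a median of 0.15. The collagen receptors DDR1 and DDR2, which are tyrosine kinases, were at 53.7 and 50.8 and at 54.3 and 48.7 units, well above ITGA1. SDC4 and MCAM had the largest differences, 0.41 and 0.34. Of 30 proteins that link integrins to actin and signalling, 18 were above 0 and 12 below, none reached 1.5-fold, and the median was 0.02. ZYX, a focal adhesion protein, was at 72.7 and 54.0, a difference of 0.42, and FERMT2, the integrin activator kindlin 2, at 17.1 and 13.2, a difference of 0.35. The kinase PTK2 and talin, TLN1, lay within 0.1 of 0.

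Of 20 compared genes for folding, export and cleavage of collagen, 11 were above 0 and 9 below, and none reached 1.5-fold, with a median of 0.00. PLOD2, a lysyl hydroxylase of collagen ends, had the highest difference at 0.52, with 33.2 and 22.8 units. FKBP10, a chaperone that works with PLOD2, had the lowest at -0.51, with 29.1 and 41.9 units. The collagen chaperone SERPINH1 was at 185 and 193. As a list, the folding genes lay within 0.03 of the median of all compared genes.

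**Figure D4:**
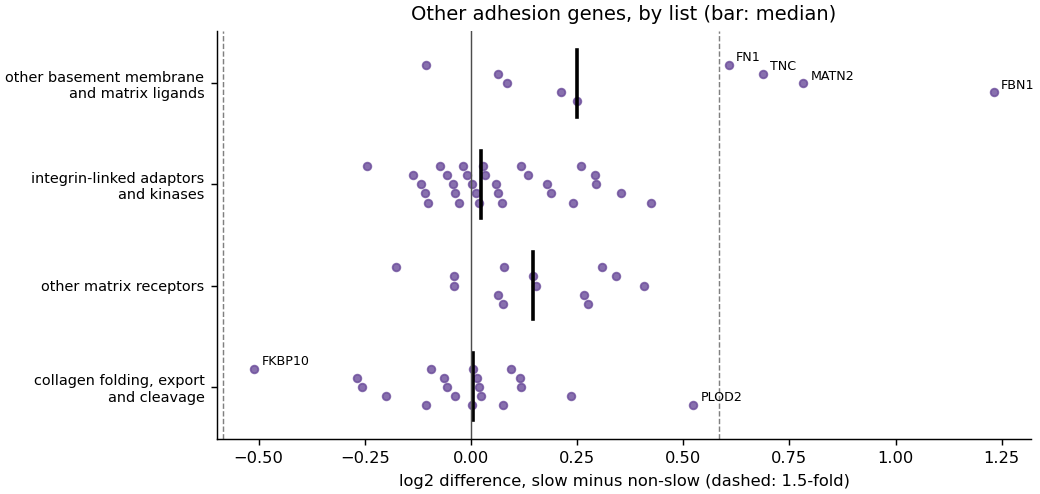
Log2 difference, SCC minus non-SCC library, of each compared gene of 4 adhesion lists, with 1 point per gene, black bars at the list medians and dashed lines at 1.5-fold. The matrix ligands FN1, TNC, MATN2 and FBN1 pass the upper line, and the medians are 0.25, 0.02, 0.15 and 0.00 from top to bottom.

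Markers of cell types that could add matrix transcripts were read beside these values. Of 8 fibroblast and pericyte markers, which include COL1A1 and COL1A2, the 6 compared all had a difference above 0, and 2 reached 1.5-fold. FAP was at 3.67 and 1.74 units, a difference of 0.77, and COL1A1 was the other. Both lie under 4 units, where 23.1% of genes were at least 1.5-fold higher, beside 5.38% of all compared genes. Above 0 were 56.2% of all compared genes. PDGFRB, THY1 and DCN had differences of 0.36, 0.34 and 0.35. The summed levels were 226 and 200.5, or 79.1 and 60.4 without COL1A1 and COL1A2. PDGFRA was listed at 0 in both libraries, and LUM was at 0.0175 and listed at 0. Their part in the collagen differences was not tested. All 5 endothelial and all 5 chondrocyte markers were listed at 0 in both. Of 7 blood cell markers, which include ITGB2, the defining gene PTPRC and 3 others were listed at 0, and the summed levels were 12.4 and 7.15. Of 6 epithelial markers, 5 were listed at 0 in both, among them KRT5, KRT14 and CDH1. Of 5 osteoblast markers, SP7 and IBSP were listed at 0, and ALPL was at 37.2 and 27.4. BGLAP was nearly level at 4.75 and 4.44, and RUNX2, below the minimum, was lower in SCC at 0.402 and 0.618.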

How the data were processed

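The authors deposited 1 table per library with a symbol, an Entrez gene ID and a log2 value, called normalized per the file headers. The headers name the columns LRC and non-LRC, and the sample under which each table was deposited set its group. Total RNA and a stranded kit that selects mRNA were used, per the labels' protocols, and hg38 is the build named, per the submitters' processing notes. What aligned the reads, what quantified them and on which annotation is not given in the sources used here. The log2 scale and the added 1 were inferred from the values: none was negative, and the back-transformed levels summed to 983638 (SCC) and 984120 (non-SCC). Each value thus comes after a normalization that cannot be undone, and counting error could not be given.

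The 174 lines with a locus suffix were summed per gene ID, which left 53737 genes. No member was affected. All 83 members were matched to the RefSeq table of GRCh38.p14, which gave coordinates. Overlapping genes and exons came from GENCODE release 29. The analysis used Python 3.11.15, NumPy 2.4.6 and pandas 2.3.3, and the counting was checked on simulated data. No further scaling was applied.

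Compared members were named, together with the members of each adhesion list at least 1.5-fold apart or, where there were none, the 2 with the largest absolute difference. AGRN, NID1, HSPG2, DDR1, DDR2, PTK2, TLN1, SERPINH1 and the cell type markers were added after their values were seen. The members and lists were chosen with earlier results of these data known. Of 95 list genes, CTAGE5 was not matched. An item that the rule names is not reported here. The alternatives were other scalings, filters, fold thresholds and a pseudocount of 0.1.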

Additional observations from a re-analysis of the deposited data

How the results depend on the processing

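Counts were taken as moved when they differed by more than 1.5 times from the reported one, and medians when they differed by more than 0.05, since no replicates set a spread. The direction of the 3 family medians and of the 7 higher genes was the same under every alternative that held them. With no filter, 8 collagens were at least 1.5-fold higher and the laminin median was 0.28. The collagens added were COL21A1, COL6A3 and COL12A1, each under 1 unit in SCC and listed at 0 in non-SCC. The share of all genes without the filter was not taken. With a minimum of 5 units in at least 1 library, 2 collagens and 2 adhesion list genes were higher, and the collagen median was 0.10. These collagens, COL16A1 and COL6A2, passed that minimum through the SCC library alone, as did LAMB3 and the list gene TNC. Their direction thus owes something to the filter, and the share of all genes at that minimum was not taken. With a mean of at least 1 unit, 2 adhesion list genes were higher. A pseudocount of 0.1 gave a laminin median of 0.54. At the lower of the other fold thresholds, 3 integrins and 9 adhesion list genes were higher and 1 adhesion list gene lower. For that threshold the share of all genes was not taken, so these counts cannot be set against one. At 2-fold, 3 collagens, 0 laminins and 1 adhesion list gene were higher. Setting the median of all genes to 0 turned the medians of the integrin-linked and the collagen folding lists to -0.0083 and -0.0282, and upper quartile scaling turned the latter to -0.0017. After subtraction of the median of genes of like level, chosen after seeing the data, the collagen median was 0.13, the laminin median 0.43 with 1 laminin higher, the median of other receptors 0.074, that of collagen folding -0.0202, and 2 adhesion list genes were higher. Beyond the thresholds and ranges themselves, the cause of these shifts was not tested. No paired analysis was possible because each group has 1 library, and for the same reason no library could be left out. Read depth was unknown, so the precision of the low levels, where the 7 higher genes lie, could not be given.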
